A study of Homo sapiens with 18 samples.

Results

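Tunicamycin (TM) was compared with vehicle in A1847 cells, a human line used as a model of high-grade serous ovarian carcinoma (HGSOC), in 3 genotypes, to find the genes whose response did not depend on which genotype was treated. The 6 groups were control cells (WT), CARM1 knockout cells (koCARM1) and XBP1 knockdown cells (shXBP1), each given vehicle (ctr) or TM at 5 μg/ml for 8 h, with 3 libraries in every group. Each vehicle group carries the same genetic change as its TM group, the knockout was made with a lentiviral CRISPR vector and the knockdown with a lentiviral shRNA, and whether the knockout cells are 1 clone is not given in the sources used here. A gene was taken as shared when it met 4 conditions. It passed the test of TM with genotype as a covariate (9 against 9 libraries), and it passed the test within each genotype alone in the same direction. It changed by at least 1.5-fold in each genotype (0.585 on the log2 scale), with the largest and smallest of its 3 log2 fold changes less than 1.5-fold apart. It had more than 3 counts in some library of every group. Of 17317 genes tested, 538 were shared, 341 of them higher and 197 lower with TM.

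TM blocks DPAGT1, the enzyme that starts the lipid-linked sugar chain used for N-glycosylation, so that unglycosylated proteins misfold in the endoplasmic reticulum (ER). The unfolded protein response (UPR) then acts through 3 sensors. IRE1 splices XBP1 mRNA into the form that encodes the transcription factor XBP1s and also cleaves other mRNAs at the ER. PERK slows translation and lets ATF4 be made, which drives amino acid genes and CHOP. ATF6 is cut in the Golgi and induces chaperones. CARM1 is an arginine methyltransferase that acts as a coactivator of transcription.

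The libraries held 9367462 to 13917212 counts. Replicates of a group correlated at r = 0.986 to 0.989 across genes in log2 CPM (counts scaled to a common total with the TMM method). The koCARM1 libraries stood apart from the rest at r = 0.73 to 0.775, while WT and shXBP1 libraries correlated at 0.961 to 0.987. They also differed in lineage markers. PAX8, a transcription factor of the ovarian and tubal epithelium, had 465 to 840 counts in koCARM1 libraries and at most 2 in the others, and KRT7 had 3576 to 5166 against at most 13. COL1A2, a collagen gene, had 0 to 34 counts in koCARM1 libraries, 8503 to 12954 in WT and 6840 to 12090 in shXBP1. Members of a list did not all differ in 1 direction. The fibroblast marker COL1A1 had 2205 to 6247 counts in koCARM1, 103 to 259 in WT and 54 to 138 in shXBP1. PDGFRB had 31 to 80, 41 to 72 and 13 to 36 counts. The epithelial marker KRT19 had 0, 5 to 44 and 0 to 4 counts. The summed level of the 14 ovarian epithelial markers listed, of which 9 were tested, was 2265 to 2780 CPM in koCARM1 and 131 to 489 CPM in the other genotypes. That of the 8 fibroblast markers listed, of which 7 were tested, was 192 to 509 CPM against 1742 to 2392 CPM. COL1A1 alone had 183 to 494 CPM in koCARM1. MUC16 was at 0 counts in every library, and the 8 leukocyte and endothelial markers, of which 2 were tested, summed to at most 3.78 CPM. In bulk libraries, fewer cells of a type and less RNA per cell cannot be told apart. The labels give all 3 genotypes as the same line, and whether the koCARM1 libraries come from the same cells as the others was not tested. In a comparison of koCARM1 with the other genotypes, the loss of CARM1 and these differences cannot be told apart. In the test of TM with genotype as a covariate, fibroblast markers were higher for 1 and lower for 4 of the 7 tested, with COL1A1 among the shared lower genes, and ovarian markers were higher for 2 and lower for 1 of the 9 tested.

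CARM1 itself had 160 to 165 CPM in WT cells with vehicle, 71.6 to 77.7 CPM in koCARM1 and 188 to 193 CPM in shXBP1, so that knockout libraries were below all others and still held CARM1 transcripts. XBP1 had 43.2 to 51.1 CPM in WT, 30.0 to 41.4 in koCARM1 and 24.1 to 26.5 in shXBP1 with vehicle. With TM it had 148 to 153, 141 to 145 and 69.0 to 73.7 CPM. XBP1 therefore rose in all 3 genotypes and stayed lowest in the knockdown with either treatment, and its 3 log2 fold changes (1.72, 2.10 and 1.49) were 0.616 apart, just too far to be a shared gene. CARM1 did not belong to the shared genes either. It fell by 0.15 on the log2 scale with genotype as a covariate (adjusted p = 0.00182, edgeR's quasi-likelihood test).

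With genotype as a covariate, 4272 genes were higher with TM (24.7% of those tested) and 4448 were lower (25.7%), at an adjusted p of 0.05 in edgeR's quasi-likelihood test with Benjamini-Hochberg adjustment. Within WT cells 3808 genes were higher (22%) and 3450 lower (19.9%). Within koCARM1 cells 3572 were higher (20.6%) and 3264 lower (18.8%), and within shXBP1 cells 3333 were higher (19.2%) and 3297 lower (19%). The sets overlapped in part. All 3 genotypes moved 1709 genes up and 1421 down in common, and 1300 and 1140 of these had 3 log2 fold changes less than 1.5-fold apart. The added demand of a 1.5-fold change in each genotype left the 341 and 197 shared genes, which are 7.98% and 4.43% of the genes higher and lower in the covariate test. Another 504 genes were higher in 1 genotype and lower in another. The effect of TM differed between genotypes for 4310 genes (24.9% of those tested) in the F test of the interaction. Without the koCARM1 libraries, the covariate test called 4412 genes higher and 4150 lower. The conditions on each genotype, applied to WT and shXBP1 alone, gave 1000 higher and 919 lower genes. These were 2.93 and 4.66 times the shared genes. That count kept the covariate test over 18 libraries and the demand for counts in every group. Dropping the conditions on 1 genotype can only add genes, whichever pair is kept. Without the covariate test, koCARM1 and shXBP1 gave 476 higher and 268 lower genes, and WT and koCARM1 gave 524 and 281. WT and shXBP1 gave 1016 and 927.

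**Figure D1:**
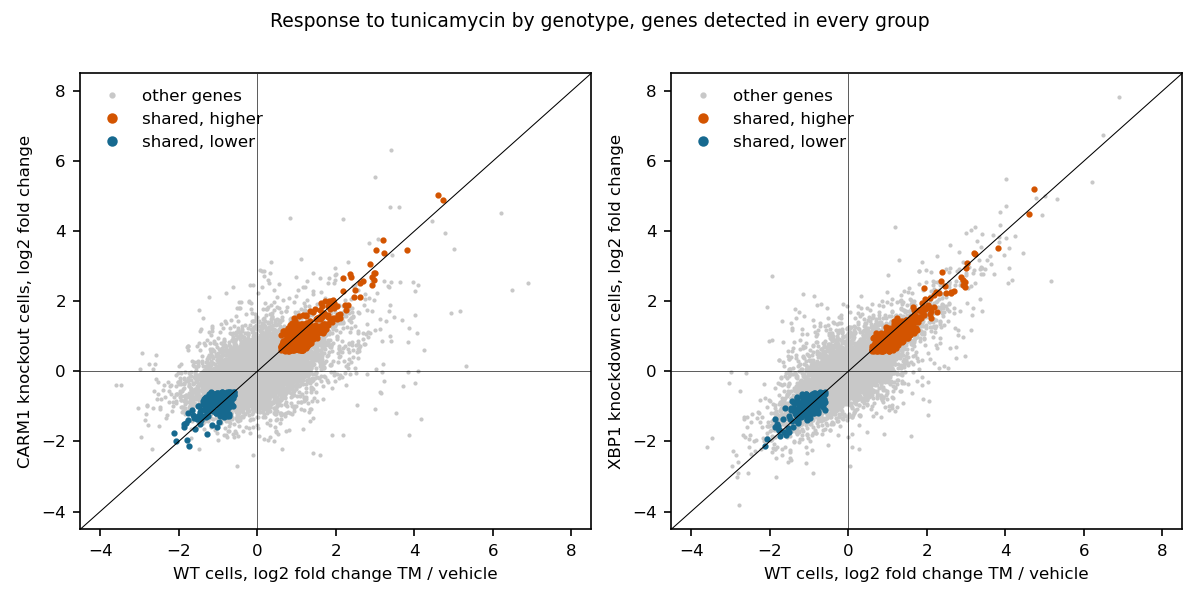
Log2 fold change with TM over vehicle in WT cells (x axis) against that in koCARM1 cells (left, y axis) and shXBP1 cells (right, y axis), 1 point for each of the 15192 genes detected in every group. Shared genes (341 higher, 197 lower) lie along the line of equal change by construction. Over all 15192 genes, shared ones included, the scatter is wider in the left plot (r = 0.546) than in the right plot (r = 0.792). Genes are not independent replicates.

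Among shared genes the covariate log2 fold change ran from 0.613 to 4.92 for the higher genes, with a median of 0.997, and from -2.01 to -0.609 for the lower genes, with a median of -0.944. Their size was seldom extreme. The middle of the higher genes lay between 0.841 and 1.32 (quartiles), a change of about 2-fold. Protein-coding genes made up 89.1% of the higher and 94.9% of the lower shared genes, against 78.1% of all genes tested. In 202 of the 341 higher genes (59.2%) all 9 TM libraries lay above all 9 vehicle libraries, and in 77 of the 197 lower genes (39.1%) all lay below. The same held for 3.7% and 2.18% of all genes tested. The rule chose genes by their change in these same libraries, so that the higher shares are a description and no separate support. The response was largest in WT cells for 191 of the higher (56%) and 102 of the lower genes (51.8%), beside 40.4% of all genes tested. It was smallest in koCARM1 for 155 of the higher genes (45.5%) and in shXBP1 for 136 (39.9%), and smallest in koCARM1 for 118 of the lower genes (59.9%), beside 45.8% of all genes tested in koCARM1 and 29.7% in shXBP1. The limits were sharp. The lncRNA gene BOLA3-DT was just inside the size limit (smallest log2 fold change 0.58528) and SLU7 just outside it (0.58495). The kinase gene ITPKB was just inside the limit on spread (0.58062) and PTPN23-DT just outside (0.5869).

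A similar size is not an equal size. The interaction passed the test for 175 of the 538 shared genes, 134 of the 341 higher and 41 of the 197 lower genes. It passed for 4310 of all 17317 genes tested (24.9%). The 95% intervals of all 3 differences between genotypes stayed within 2-fold for 317 of the 341 higher and 178 of the 197 lower genes. They did so for 9107 of all 17317 genes tested. The rule chose the shared genes by the distance between their 3 log2 fold changes in these same libraries. The counts of intervals are therefore a description and no separate support.

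To measure how far the response carried between genotypes, genes were chosen by the same rule from 2 genotypes, leaving out the covariate test. They were then read in the 6 libraries of the third. Besides the filter for testing, those libraries entered the choice only by the demand for more than 3 counts in some library of every group. The shares of all genes are over the 17317 tested, of which 2125 did not meet this demand. Of 476 genes chosen as higher in koCARM1 and shXBP1, 460 were higher in WT cells (96.6%, against 22% of all genes) and none was lower. Of 268 chosen as lower, 251 were lower in WT (93.7% against 19.9%). In shXBP1 cells, 463 of the 524 genes chosen as higher in the other two were higher (88.4% against 19.2%), and 249 of 281 chosen as lower were lower (88.6% against 19%), with 0 moved the other way. In koCARM1 cells the shares were smaller. Of 1016 genes chosen as higher in WT and shXBP1, 738 were higher (72.6% against 20.6%) and 37 were lower, and of 927 chosen as lower, 608 were lower (65.6% against 18.8%) and 24 were higher. The size carried over less often than the direction. It stayed within 1.5-fold for 76.3% and 81.3% of the chosen higher and lower genes in WT, 79.2% and 85.4% in shXBP1, and 51.1% and 48% in koCARM1. The median log2 fold change of the chosen higher genes went from 1 to 0.597 in koCARM1, from 1 to 1.2 in WT and from 0.988 to 0.887 in shXBP1.

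**Figure D2:**
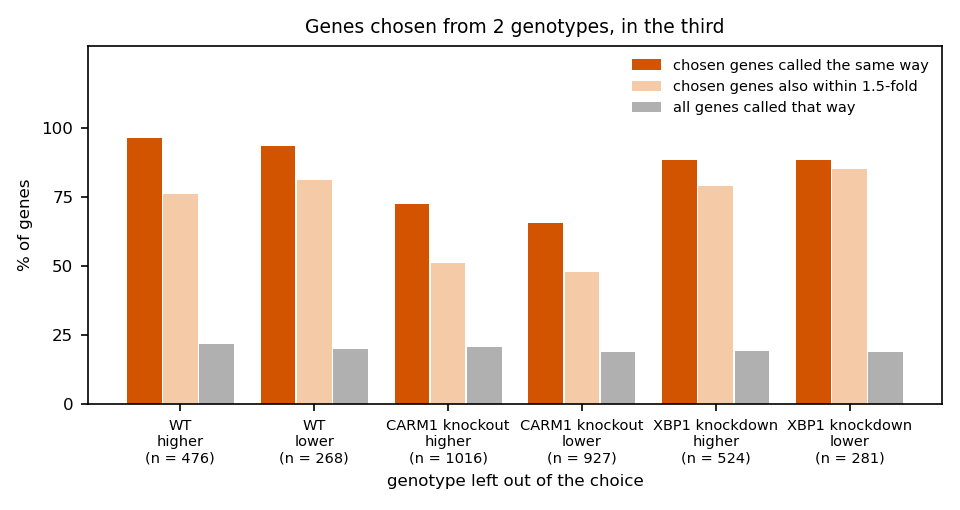
Percent of genes (y axis) that were called in the same direction in the genotype left out (dark bars) and that also stayed within 1.5-fold there (light bars), beside the percent of all genes called in that direction (grey bars), for each left-out genotype and direction (x axis). Dark bars stand at 65.6% to 96.6% and grey bars at 18.8% to 22%, with the lowest dark bars in the CARM1 knockout.

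The UPR sensors and stress transcription factors held the largest shared changes. Of 19 genes, 18 were higher in the covariate test and 0 lower, and the median log2 fold change was 1.57, beside -0.0186 over all genes tested. Over all 17317 genes tested, 24.7% were higher and 25.7% lower in the covariate test, and 341 and 197 were shared. The counts of this list and of each list below are to be read beside these. The shared genes were TRIB3, DDIT3, EIF2AK3, CEBPG, ATF4, ERN1 and NFE2L2. TRIB3, a pseudokinase induced by ATF4 and CHOP that dampens their signalling, had 5.82 to 6.5 CPM in WT cells with vehicle, 10.1 to 10.9 in koCARM1 and 3.77 to 5.62 in shXBP1. With TM it had 159 to 170, 297 to 309 and 169 to 173 CPM. All 9 TM libraries lay above all 9 vehicle libraries. The log2 fold change was 4.92 ± 0.067 (SE, 9 against 9; adjusted p = 2.99e-22), made of 4.73 in WT, 4.88 in koCARM1 and 5.21 in shXBP1.

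DDIT3, which encodes the transcription factor CHOP, had 10.2, 12.7 and 13.6 CPM in the WT libraries with vehicle and 288, 293 and 297 with TM. In koCARM1 it went from 16.9, 17.0 and 21.1 to 558, 575 and 585 CPM, and in shXBP1 from 12.8, 13.2 and 16.4 to 313, 318 and 326 CPM. TM libraries of every genotype lay far above all vehicle libraries, with a log2 fold change of 4.69 ± 0.075 (SE; adjusted p = 3.09e-21). DDIT3 and MARS1 overlap by 982 bases at their 3′ ends on opposite strands (GRCh37 chr12:57910371-57915520 and chr12:57869228-57911352), where 3′ libraries read. Whether the counting used strand is not given in the sources used here, so that part of the count of either gene may belong to the other. EIF2AK3, the gene of PERK, went from 7.80 to 11.6 CPM with vehicle (median 9.55) to 28.3 to 55.8 with TM (median 45.4), with no overlap. ATF4, the factor that PERK lets be translated, had 412 to 430 CPM in WT, 532 to 556 in koCARM1 and 415 to 427 in shXBP1 with vehicle, and 1392 to 1510, 1297 to 1341 and 1410 to 1438 CPM with TM. The 9 libraries with TM lay above the 9 with vehicle, and the log2 fold changes were 1.81, 1.31 and 1.74. CEBPG, a bZIP partner of ATF4, had log2 fold changes of 1.65, 1.87 and 1.82, a spread of 0.221.

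**Figure D3:**
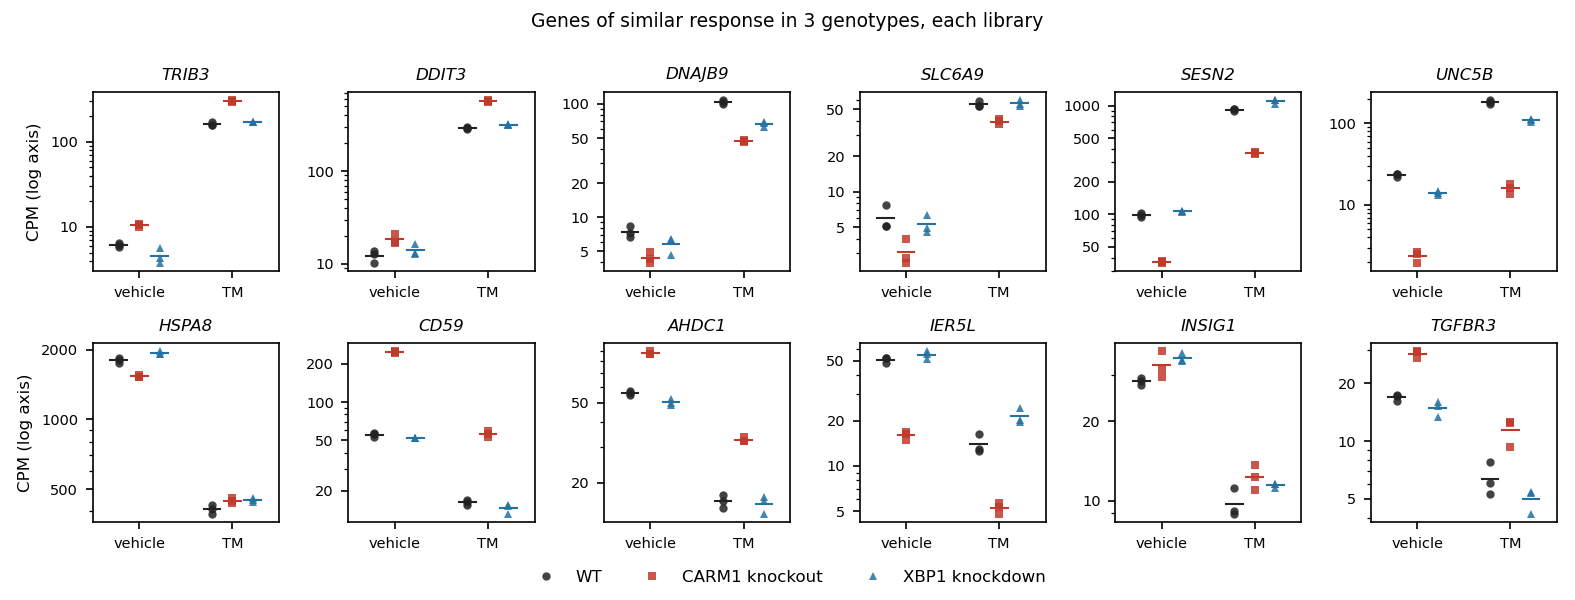
CPM in each library (y axis, log scale) with vehicle and TM (x axis) for 6 higher and 6 lower shared genes. Circles are WT, squares the CARM1 knockout, triangles the XBP1 knockdown, and short lines group means of 3. TM moves each gene in all 3 genotypes, while starting levels can differ, as for UNC5B (1.94 to 2.63 CPM in the knockout with vehicle, 13.1 to 24.0 in the others).

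ER chaperones and co-chaperones were the list with the largest number of shared members beside ER to Golgi transport. Of 20 genes, 18 were higher and 1 lower (SDF2), the median log2 fold change was 1.45, and 10 were shared. The shared members were DNAJB9, HYOU1, CRELD2, DNAJC3, CALR, CANX, DNAJC10, SIL1, FKBP2 and PPIB. DNAJB9, a J-domain co-chaperone of BiP, went from 6.65, 7.23 and 8.40 to 99.9, 104 and 108 CPM in WT. It went from 3.94, 4.24 and 4.97 to 45.9, 47.5 and 48.5 CPM in koCARM1, and from 4.68, 6.33 and 6.39 to 62.3, 68.1 and 69.7 CPM in shXBP1. All TM libraries stood above all vehicle libraries, and TM levels were highest in WT. The log2 fold change was 3.60 ± 0.071 (SE; adjusted p = 1.04e-19), and the interaction did not pass the test (adjusted p = 0.147). HYOU1, a large chaperone and nucleotide exchange factor, rose from a median of 137 to 887 CPM (log2 fold changes 2.87, 3.07 and 2.68). DNAJC3, which inhibits PERK, rose from 69.3 to 434 CPM (2.69, 2.57 and 2.29). CRELD2 rose from 27.4 to 32.2 CPM to 170 to 178 CPM in koCARM1 and from 75.4 to 86.1 CPM to 436 to 630 CPM in the other genotypes. Its TM levels in the knockout were thus below those of the other genotypes, with a log2 fold change of 2.60 against 2.96 and 2.40.

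Stretches of the promoters of HYOU1 and CRELD2 are printed here because ER stress response elements were found in them. ERSE is read as CCAAT, 9 bases of any kind and CCACG, and ERSE-II as ATTGG, 1 base of any kind and CCACG, on either strand. Sequences and positions are from RefSeq (GRCh38.p14), given 5′ to 3′ on the strand of the gene, with the element in capitals. HYOU1 lies on the minus strand and has ERSE-II at 185 and 79 bases before its start. CRELD2 lies on the plus strand and has ERSE at 80 bases before its start.

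HYOU1, chr11:119057355-119057415: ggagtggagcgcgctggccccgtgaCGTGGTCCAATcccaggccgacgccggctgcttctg
HYOU1, chr11:119057249-119057309: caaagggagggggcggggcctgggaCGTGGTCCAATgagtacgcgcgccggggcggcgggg
CRELD2, chr22:49918529-49918597: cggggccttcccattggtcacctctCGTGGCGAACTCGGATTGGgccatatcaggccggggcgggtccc

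HSPA5, the gene of the main ER chaperone BiP, was not among the shared genes. It had 1245 to 1304 CPM in WT with vehicle, 983 to 987 in koCARM1 and 1013 to 1044 in shXBP1, and 10495 to 10834, 13021 to 13216 and 7978 to 8243 CPM with TM. It rose in every genotype (log2 fold change 3.26 ± 0.083), but by 3.77 in koCARM1 against 3.08 in WT and 2.98 in shXBP1. The difference between koCARM1 and WT was 0.67 on the log2 scale (95% interval 0.59 to 0.75). SDF2L1 (2.86, 3.68 and 2.47) and MANF (2.30, 3.11 and 2.06) were likewise higher in all 3 genotypes, with the largest change in the knockout.

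Most genes of oxidative folding, of degradation and of entry into the ER were also higher in the covariate test, and smaller numbers of them were shared. Of 16 disulfide isomerases and ER oxidases, 14 were higher and 0 lower (median log2 fold change 0.841), and P4HB, PDIA3, PDIA5, PDIA6 and TXNDC11 were shared. P4HB, a protein disulfide isomerase, had 181 to 263 CPM with vehicle and 416 to 718 with TM, without overlap. PDIA4 was the isomerase furthest from a shared size, at 1.6, 2.67 and 1.47. Of 23 genes of ER-associated degradation, 19 were higher and 1 lower (UBE2G2), with a median of 0.866, but only SYVN1, DERL2 and SELENOS were shared. SYVN1, the E3 ligase of this pathway, rose from 18.3 to 27.3 CPM with vehicle to 113 to 145 with TM (log2 fold change 2.60 ± 0.065). FAU overlaps it by 398 bases at its 3′ end on the same strand. FAU had a higher average log2 CPM (9.27 against 5.76) and a log2 fold change of -0.02. The split of reads between SYVN1 and FAU was not tested. The 3 genotypes differed most for HERPUD1 (3.61, 4.70 and 3.28) and EDEM2 (2.24, 0.73 and 1.29). Of 23 genes of translocation and signal peptide cleavage, 18 were higher and 1 lower (SRP14; median 0.736), and SEC61A1, the pore subunit, and the signal peptidase subunits SPCS2 and SPCS3 were shared. SPCS3 had nearly the same change in each genotype, 0.73, 0.60 and 0.72.

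Of 32 genes of N-glycosylation and hexosamine synthesis, 23 were higher and 3 lower (ALG1, ALG6 and OST4), the median log2 fold change was 0.487, and 2 were shared. GFPT1, the first enzyme of the hexosamine pathway, rose from 45.1 to 63.9 CPM (median 52.6) to 172 to 298 CPM (median 236). Vehicle and TM libraries did not overlap (2.18, 2.30 and 1.85). OSTC, a subunit of the oligosaccharyltransferase, had log2 fold changes of 1.14, 1.32 and 0.80. DPAGT1, the target of TM, was higher in all 3 genotypes at 0.67, 0.67 and 0.30, and so fell short of 1.5-fold in shXBP1. Of 33 genes of ER to Golgi transport, 28 were higher and 1 lower (SEC24B; median 0.763), and 10 were shared, namely SEC16A, LMAN1, SURF4, TMED2, TMED7, TMED9, TMED10, USO1, COPB1 and COPG1. TMED7, a cargo receptor, rose from 29.4 to 34.2 CPM to 71.0 to 96.6 CPM, and USO1, a vesicle tether, from 85.5 to 92.2 CPM to 182 to 241 CPM. Neither overlapped. SEC24D, a coat subunit that selects cargo, rose more in WT (4.1) than in koCARM1 (2.47) or shXBP1 (2.96).

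The enzymes of amino acid synthesis held the highest share of shared members among the lists, which were chosen with earlier results known. Over all 17317 genes tested, 538 were shared. Of 16 enzymes of amino acid synthesis and one-carbon metabolism, 15 were higher and 0 lower, the median log2 fold change was 1.54 (1.66 in WT, 1.51 in koCARM1 and 1.53 in shXBP1), and 9 were shared. These were ASNS, PHGDH, PSAT1, SHMT2, MTHFD2, MTHFD1L, CTH, GPT2 and GOT1. ASNS, which makes asparagine, had 48.5 to 49.5 CPM in WT with vehicle, 55.2 to 70.1 in koCARM1 and 64.0 to 65.8 in shXBP1, and 346 to 384, 385 to 404 and 366 to 419 CPM with TM. Both the starting and the final levels were close in the 3 genotypes, and the log2 fold change was 2.73 ± 0.053 (SE; adjusted p = 8.76e-20). GOT1, a transaminase, rose from a median of 95 to 497 CPM (2.45, 2.13 and 2.45). MTHFD2, a mitochondrial one-carbon enzyme, rose from 128 to 459 CPM (2.04, 1.5 and 1.88). Of 12 amino acid transporters, 11 were higher and 0 lower (median 1.63), and SLC6A9, SLC3A2, SLC7A5 and SLC1A5 were shared. SLC6A9, a glycine transporter, had 2.49 to 7.70 CPM with vehicle and 37.1 to 59.6 with TM. SLC3A2, the heavy chain of several exchangers, had 89.0 to 188 and 467 to 919 CPM. Neither overlapped. SLC7A11, the cystine exchanger that pairs with SLC3A2, rose by 5.02 and 4.99 in WT and shXBP1 and by 3.49 in koCARM1, where it started at 72.3 to 79.9 CPM against 5.87 to 8.74 CPM.

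Of 20 cytosolic aminoacyl-tRNA synthetases, 19 were higher and 0 lower, with medians of 0.855, 1.02 and 0.707 in WT, koCARM1 and shXBP1, and 9 were shared (AARS1, CARS1, EPRS1, GARS1, IARS1, MARS1, NARS1, TARS1 and YARS1). Their median spread between genotypes was 0.244, beside 0.453 over all genes tested, which include 2125 not detected in some group. A narrow spread was not particular to the synthetases. It was 0.246 for cytosolic heat shock and 0.254 for mitosis genes. For cytosolic ribosomal protein genes it was 0.146, and for mitochondrial chaperones and proteases 0.137. The other lists were wider. GARS1 went from 117 to 208 CPM (median 166) to 410 to 722 CPM (median 684), with log2 fold changes of 2.04, 1.86 and 1.86. AARS1 went from 160 to 209 CPM (median 173) to 508 to 622 CPM (median 597), with 1.61, 1.95 and 1.55. For both, all 9 TM libraries were above all 9 vehicle libraries. CARE elements, read as TGATGNAA on either strand, bind ATF4 with C/EBP partners and are the elements known from ASNS. They are shown for the 3 shared genes of amino acid supply named here that hold one before their start, all on the minus strand, at 68, 198 and 187 bases before it (RefSeq, GRCh38.p14, element in capitals).

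ASNS, chr7:97872444-97872501: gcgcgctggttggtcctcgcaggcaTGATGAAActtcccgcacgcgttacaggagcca
GOT1, chr10:99430790-99430847: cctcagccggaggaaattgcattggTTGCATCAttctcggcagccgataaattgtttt
AARS1, chr16:70289661-70289718: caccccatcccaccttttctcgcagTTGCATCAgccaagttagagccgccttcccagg

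Feedback and secreted stress factors moved strongly and less evenly. Of 16 genes, 13 were higher and 0 lower (median log2 fold change 2.27), and SESN2, ADM2, GADD45A and EIF4EBP1 were shared. SESN2, which restrains mTORC1, went from 94.8, 97.6 and 102 to 897, 922 and 938 CPM in WT, from 35.6, 36.7 and 37.1 to 360, 365 and 377 CPM in koCARM1, and from 106, 107 and 108 to 1034, 1117 and 1121 CPM in shXBP1. Its level in the knockout was lower with both treatments, and its log2 fold changes were 3.24, 3.37 and 3.34. GADD45A, a growth arrest gene, shows the same separation of level from response. It had 97.6 to 123 CPM in koCARM1 with vehicle and 22.7 to 31.4 in the other genotypes, so that vehicle and TM libraries overlapped, yet its log2 fold changes were 1.88, 1.83 and 1.95. ADM2, a secreted peptide hormone, rose from 3.01 to 9.85 CPM to 26.3 to 66.0 CPM without overlap. GDF15, a secreted factor of the TGFβ superfamily, was higher in all 3 genotypes but with log2 fold changes of 3.42, 6.32 and 3.91. Its koCARM1 libraries with vehicle had only 0.0839 to 0.311 CPM, so that the value of 6.32 rests on few counts. DDIT4 was higher by 4.35 in koCARM1 and by 2.19 and 2.33 in WT and shXBP1.

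**Figure D4:**
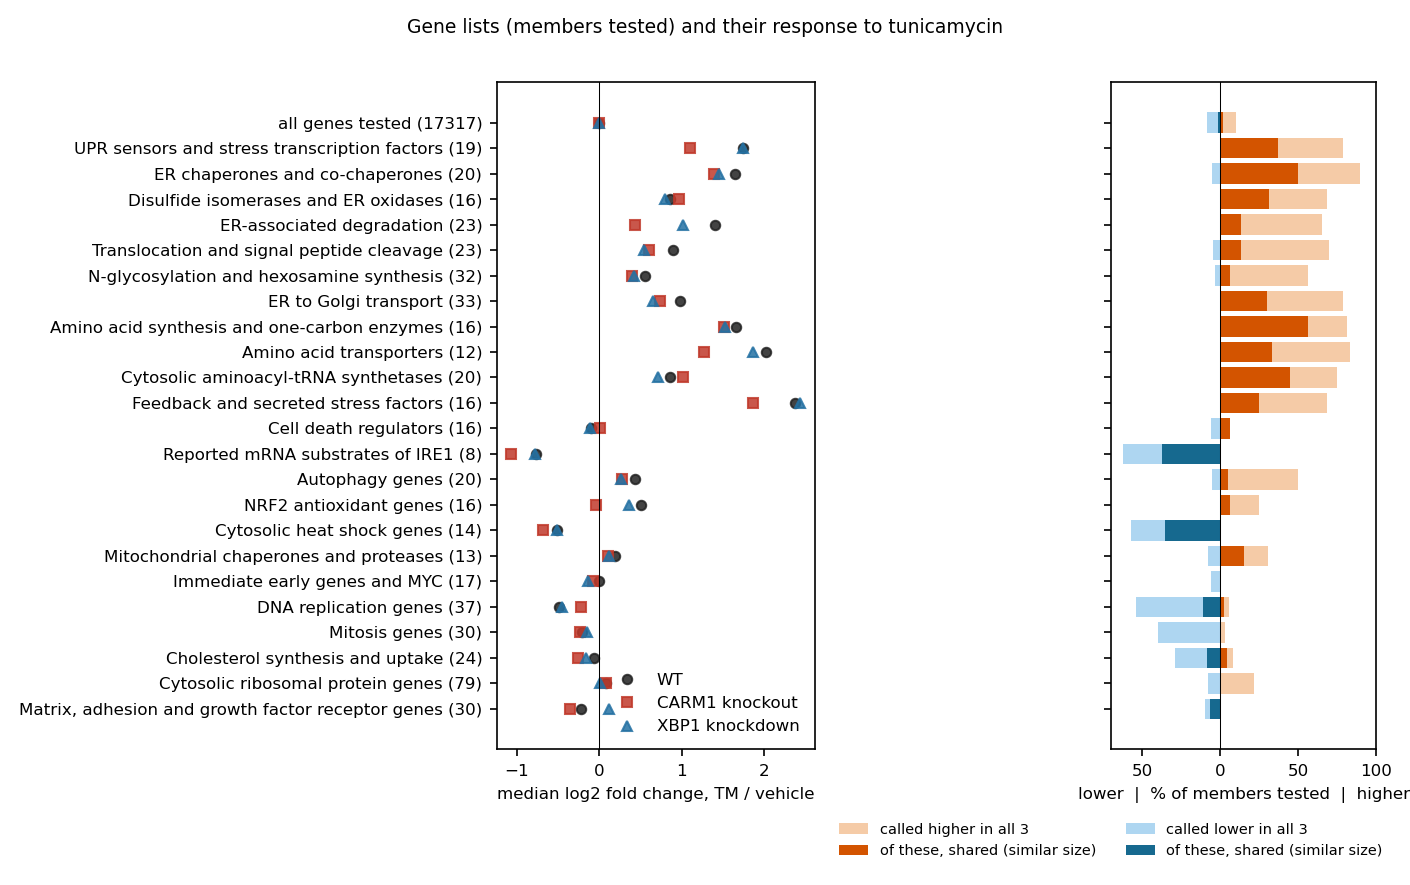
Left, the median log2 fold change with TM over vehicle (x axis) of each gene list (y axis, number of members tested in brackets) in WT (circles), CARM1 knockout (squares) and XBP1 knockdown (triangles). Right, the percent of members called higher (right of 0) or lower (left of 0) in all 3 genotypes (light) and shared (dark). ER folding, transport and amino acid lists lie to the right in every genotype and heat shock, replication and IRE1 substrate lists to the left.

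Outside these lists the largest shared rises at an average log2 CPM of 3 or more were in UNC5B, SLFN5 and TSPYL2. UNC5B, a netrin receptor, went from 21.9 to 24.0 CPM to 175 to 193 CPM in WT, from 1.94 to 2.63 CPM to 13.7 to 18.3 CPM in koCARM1 and from 13.1 to 14.8 CPM to 103 to 112 CPM in shXBP1. The knockout level with TM was below the WT level with vehicle, while the log2 fold changes were 2.99, 2.81 and 2.96 (interaction adjusted p = 0.726). SLFN5, a Schlafen family gene, was instead highest in the knockout, with 29.1 to 34.0 CPM in koCARM1 with vehicle, 1.62 to 2.21 in WT and 0.753 to 1.35 in shXBP1. With TM these became 204 to 217, 8.91 to 10.3 and 4.48 to 6.77 CPM, with log2 fold changes of 2.77, 2.37 and 2.59. Of the 341 higher genes, 73 were in any of the lists, and of the 197 lower genes, 17. These counts depend on which genes were listed, and the lists were chosen with earlier results of these data known. They were not set against the share of all genes tested that is in the lists.

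The shared falls were led by cytosolic chaperones. Of 14 cytosolic heat shock genes, 10 were lower and 1 was higher (median log2 change -0.558), and HSPA8, HSPA1B, DNAJA1, DNAJB1 and HSPH1 were shared. HSPA8, the constitutive cytosolic Hsp70, had 1749 to 1840 CPM in WT with vehicle, 1525 to 1561 in koCARM1 and 1911 to 1968 in shXBP1. With TM it had 389 to 426, 436 to 456 and 441 to 457 CPM. Levels were close in the 3 genotypes before and after, without overlap between treatments, and the log2 fold change was -2.01 ± 0.044 (SE; adjusted p = 5.67e-19). Its J-domain partners DNAJB1 (142 to 177 CPM to 72.4 to 84.5 CPM; -1.01, -0.87 and -1.07) and DNAJA1 (271 to 339 CPM to 116 to 173 CPM; -0.92, -1.16 and -1) fell by about 2-fold. HSPA1B had log2 fold changes of -1.27, -1.78 and -1.48 but is nearly identical to HSPA1A, which was also lower, and the split of reads between them is uncertain. Of 13 mitochondrial chaperones and proteases, 6 were higher and 2 lower (median 0.0802). HSPA9, the mitochondrial Hsp70, was shared and higher (1.01, 1.07 and 0.95), as was the protease LONP1 (1.37, 0.93 and 1.21). The small co-chaperonin HSPE1 was lower (-1.18, -0.76 and -1.64), so that chaperones of the cytosol and the mitochondria did not move as one. HSPE1 is overlapped by 3310 bases at its 3′ end on the other strand by HSPD1, whose log2 fold change was 0.01.

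All 8 reported mRNA substrates of IRE1 were lower in the covariate test (median log2 fold change -0.905), and CD59, SCARA3 and BLOC1S1 were shared. CD59, a membrane inhibitor of complement, had 53.0, 56.5 and 56.7 CPM in WT with vehicle and 15.6, 16.5 and 17.1 with TM. In koCARM1 it went from 245, 250 and 251 to 52.9, 56.1 and 59.0 CPM, and in shXBP1 from 52.1, 52.2 and 52.5 to 13.1, 15.2 and 15.6 CPM. The knockout level with TM overlapped the WT level with vehicle, so that vehicle and TM libraries overlapped across genotypes but not within one (-1.74, -2.12 and -1.85; -1.93 ± 0.056, adjusted p = 6.87e-17). BLOC1S1, a subunit of a lysosome biogenesis complex, went from 29.6 to 55.9 CPM to 13.4 to 22.9 CPM without overlap (-1.04, -1.19 and -1.28). SCARA3 went from 24.4 to 36.3 CPM to 6.23 to 17.3 CPM, also without overlap.

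Genes of the cell cycle were lower in smaller steps. Of 37 DNA replication genes, 29 were lower and 4 higher (median log2 fold change -0.383), and PCNA, GINS1, ORC1 and CCNE2 were shared lower genes. PCNA, the sliding clamp, had 175 to 230 CPM with vehicle and 76.3 to 123 with TM, without overlap (-1.23, -0.69 and -1.18). CDC6, a licensing factor, went the other way and was shared and higher, from 70.6 to 106 CPM to 211 to 304 CPM (1.62, 1.53 and 1.13). CCNE1, a cyclin, fell in WT and shXBP1 (-1.55 and -1.37) far more than in koCARM1 (-0.25). Of 30 mitosis genes, 18 were lower and 6 higher (median -0.228), and 0 reached 1.5-fold in every genotype with a similar size. Of 79 cytosolic ribosomal protein genes, 32 were higher and 17 lower with a median of 0.0435 and 0 shared.

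Of 24 genes of cholesterol synthesis and uptake, 14 were lower and 5 higher (median log2 fold change -0.185). INSIG1, which holds the SREBP complex in the ER, went from 27.4, 28.4 and 29.1 to 8.90, 9.16 and 11.2 CPM in WT, from 29.3, 31.4 and 36.7 to 11, 12.3 and 13.7 CPM in koCARM1, and from 33.8, 34.1 and 36.2 to 11.2, 11.6 and 11.6 CPM in shXBP1. The treatments did not overlap (-1.52, -1.36 and -1.60). The sterol carrier STARD4 was shared and higher (1.46, 1.06 and 1.10). Of 30 matrix, adhesion and growth factor receptor genes tested, 18 were lower and 3 higher (median -0.266), and the laminin gene LAMA5 (-1.50, -1.27 and -1.74) and the integrin gene ITGB5 (-1.13, -0.87 and -0.94) were shared. LAMA5 is overlapped at its 3′ end on the other strand by ADRM1, whose log2 fold change was -0.03. Other large shared falls were in AHDC1 (-1.77, -1.39 and -1.68), IER5L (-1.85, -1.57 and -1.37), the glycosyltransferase gene MGAT4B (-1.64, -1.24 and -1.73) and TGFBR3, a coreceptor for TGFβ (-1.41, -1.27 and -1.59).

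The remaining lists held 0 or 1 shared genes each. Over all 17317 genes tested, 341 were shared and higher and 197 shared and lower. In the covariate test, 24.7% of all genes tested were higher and 25.7% lower. Of 16 cell death regulators, 3 were higher and 6 lower (median log2 fold change -0.0491), and TNFRSF10B, the death receptor DR5, was the 1 shared gene, going from 25.6 to 52.7 CPM to 82.0 to 127 CPM without overlap. Of 20 autophagy genes, 12 were higher and 3 lower, and NBR1, a cargo receptor, was shared (0.98, 0.75 and 0.90). CCPG1, a receptor for ER autophagy, rose by 3.38 and 3.55 in WT and shXBP1 and by 1 in koCARM1. Of 16 NRF2 antioxidant genes, 10 were higher and 3 lower, and GCLC, the catalytic subunit for glutathione synthesis, was shared (0.88, 0.77 and 0.68). Of 17 immediate early genes with MYC, 2 were higher and 6 lower, with a median spread of 1.2 between genotypes and 0 shared. JUNB, the 1 member lower in all 3 genotypes, had -1.88, -0.50 and -1.20.

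Of the 3130 genes moved in the same direction in all 3 genotypes, 690 differed by 1.5-fold or more between genotypes, and the interaction passed the test for 592 of these. Of the 5 higher and 5 lower genes of widest spread (at an average log2 CPM of 3 or more), 8 had their smallest change in koCARM1 and 2 their largest. ATF3, a stress transcription factor below that level, had 0.387 to 0.737 CPM in WT with vehicle, 3.55 to 5.20 in koCARM1 and 0.497 to 0.772 in shXBP1, and 52.1 to 53.6, 18.9 to 22.1 and 65.9 to 70.8 CPM with TM. The knockout started higher and ended lower, with a log2 fold change of 2.33 against 6.5 and 6.76. The lowest count of ATF3 in a library was 5, so that 6.5 and 6.76 rest on few counts. NIBAN1, a stress-induced regulator of translation, started at 56.6 to 60.5 CPM in koCARM1 and at 0.568 to 3.61 in the other genotypes. It ended at 319 to 342 CPM against 189 to 373 CPM (2.52 against 6.89 and 7.83). The lowest count of NIBAN1 was 8, in shXBP1 with vehicle, so that 7.83 rests on few counts. SDC1, a cell surface proteoglycan, fell from 79.6 to 83.2 CPM to 56.7 to 62.7 CPM in koCARM1 and from 103 to 125 CPM to 22.1 to 34.1 CPM in the others (-0.41 against -2.07 and -1.88). Of the 504 genes with opposite calls, koCARM1 opposed WT in 360 and shXBP1 in 360 (both in 224), while WT and shXBP1 opposed each other in 13. ASB1 was higher in koCARM1 (1.99) and lower in WT and shXBP1 (-0.40 and -0.57), and was not called in the covariate test (log2 fold change 0.35, adjusted p = 0.302). CCND2 and COL1A2 also had opposite calls, but with 0 to 1 counts in some koCARM1 libraries.

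**Figure D5:**
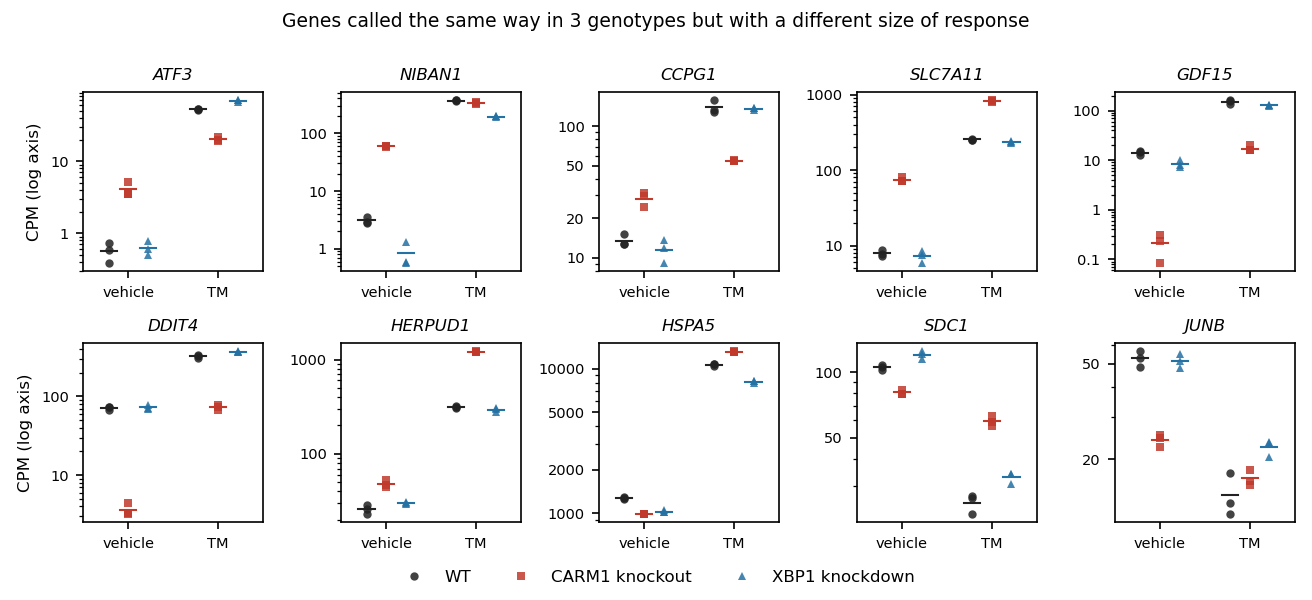
CPM in each library (y axis, log scale) with vehicle and TM (x axis) for 10 genes moved in the same direction in all 3 genotypes but by a different size. Symbols are as in the plot of shared genes, with group means of 3 as short lines. In ATF3, NIBAN1, CCPG1 and SDC1 the CARM1 knockout shows the smallest change, and in GDF15, DDIT4, HERPUD1 and HSPA5 the largest.

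Promoters were a property that the rule did not use. RefSeq promoters (250 bases before to 50 after the start) were matched by symbol for 273 of the 341 higher genes, 148 of the 197 lower genes and 11770 of the 17317 genes tested. They were also matched for 1104 of the 1368 genes (80.7%) that were higher in all 3 genotypes but not shared. Fewer than 80% of the lower shared genes (75.1%) and of all genes tested (68%) were matched, so that a check of their promoters is void and shares are given only for the higher shared genes (80.1% matched), the other higher genes and all 27305 promoters. ERSE was found in 1.1% of the higher shared genes' promoters, in 0.815% of those of the other higher genes and in 0.0806% of all promoters. ERSE-II was found in 0.733%, 0.453% and 0.0549%, in the same order. The core TGACGTG, which XBP1s and ATF6 can bind, was found in 6.23%, 4.8% and 2.0%. Whether these shares differ between the shared and the other higher genes was not tested. CARE was found in 5.13%, 2.54% and 3.67%, and in the 250 bases before the start alone in 2.56%, 1.9% and 3.19%. All 27305 promoters include those of genes not tested here, so they are not a background of expressed genes. Whether an element is more or less frequent than among expressed genes cannot be read from them. The cAMP response element TGACGTCA was found in 1.47%, 4.26% and 1.98%. CCAAT, which is part of ERSE and so counted with it, was found in 52.7%, 44.1% and 35.7%. ERSE and ERSE-II occurred in 3 and 2 of the 273 promoters. In the first listed promoters of TRIB3, DDIT3, DNAJB9, SESN2 and ATF4, none of ERSE, ERSE-II, TGACGTG and CARE was found before the start. These are matches of letters, counted on both strands.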

How the data were processed

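RNA of A1847 cells was measured in 18 libraries of 3′ mRNA-seq (75 nt single reads). The values that the authors deposited are expected counts by Ensembl gene, made with RSEM after alignment to hg19 with bowtie2. They are whole and not normalized. The Ensembl release and the strand setting are not given in the sources used here. Groups came from the labels, 0 columns were left unmapped, and symbols were matched for 43484 of 57736 genes.

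The software was DESeq2 1.42.0, edgeR 4.0.16 and limma 3.58.1, run under R 4.3.3. The steps were filterByExpr with a minimum count of 10, TMM normalization, edgeR's quasi-likelihood test and Benjamini-Hochberg adjustment at 0.05 over all genes tested. The covariate test used all 18 libraries, the tests within a genotype its 6 libraries alone, and the interaction a fit of 6 group means. Log2 CPM used a prior count of 2, and a gene needed more than 3 counts in some library of a group to count as detected there. Chi-square per degree of freedom between replicates was 1.84 to 6.89, above counting error alone. The labels do not say that replicates are separate cultures, so p-values measure the spread between these libraries.

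Named genes were the 15 higher and 15 lower shared genes of largest change at a mean log2 CPM of at least 3, up to 4 shared and 2 unlike members of each list, CARM1, XBP1, HSPA5, DNAJB9, DDIT3, ATF4 and DPAGT1, 5 genes of widest spread in each direction, 5 with opposite calls, and those at the limits of the rule. Members, lists and the rule were chosen with earlier results of these data known. Markers and other members named in a list were added where a count turned on them. Of the genes this rule names, a few are not reported here. Scripts were tested on simulated data. Alternatives were other size factors, DESeq2, other filters, limits and fits, a replicate block, a genotype left out and each library left out in turn.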

Additional observations from a re-analysis of the deposited data

Results flagged for a closer look

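The effect of TM differed between genotypes for 4310 of the 17317 genes tested, in edgeR's F test of both interaction terms at an adjusted p of 0.05. For each gene named in the report that passed this test, the distance between its largest and its smallest log2 fold change is given in brackets, in log2 units and over 3 genotypes with 3 libraries a group. Among genes that are not shared, the distance was 2 or more for NIBAN1 (5.31), ATF3 (4.43), CCND2 (3.02), COL1A2 (2.93), GDF15 (2.91), ASB1 (2.56), CCPG1 (2.55) and DDIT4 (2.15). It was smaller for SDC1 (1.66), SEC24D (1.63), SLC7A11 (1.53), EDEM2 (1.51), HERPUD1 (1.41), JUNB (1.38) and CCNE1 (1.3). The smallest distances of this kind were those of SDF2L1 (1.2), PDIA4 (1.19), MANF (1.06), HSPE1 (0.886), HSPA5 (0.789), XBP1 (0.616), DPAGT1 (0.372) and SLU7 (0.255). ASB1, CCND2 and COL1A2 were higher in 1 genotype and lower in another, and the other genes above moved in the same direction in all 3 genotypes. The distances of NIBAN1, ATF3, CCND2, COL1A2 and GDF15 rest in part on groups with few counts.

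The same test was passed by shared genes too, which the rule on size keeps under 0.585. Genes of the UPR, ER folding and ER entry or exit among them were SELENOS (0.578), CRELD2 (0.558), COPB1 (0.543), DDIT3 (0.536), PDIA5 (0.531), OSTC (0.525), ATF4 (0.498), TRIB3 (0.479), SYVN1 (0.459), GFPT1 (0.45), PDIA3 (0.434), DERL2 (0.43), TMED7 (0.421), DNAJC3 (0.4), HYOU1 (0.389), COPG1 (0.369), P4HB (0.361), SEC61A1 (0.327), USO1 (0.317) and SPCS2 (0.256). Genes of amino acid supply and of translation among them were MTHFD2 (0.541), CARS1 (0.484), EIF4EBP1 (0.416), AARS1 (0.392), SLC1A5 (0.337), GOT1 (0.329), ASNS (0.316), SLC3A2 (0.257), MARS1 (0.254) and GARS1 (0.185). The others were COL1A1 (0.566), PCNA (0.547), HSPA1B (0.506), TNFRSF10B (0.493), MGAT4B (0.487), IER5L (0.484), CDC6 (0.484), LONP1 (0.433), AHDC1 (0.377), HSPA8 (0.373), CD59 (0.372) and DNAJA1 (0.244). These differences were not weighed further.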

How the results depend on the processing

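The count of genes called with genotype as a covariate (4272 higher, 4448 lower) fell to 1635 and 1551 where a change of 1.5-fold was also required. The 341 higher and 197 lower shared genes became 164 and 110 with the 3 log2 fold changes less than 0.322 apart. With at least 2-fold in each genotype they became 117 and 30. They became 1000 and 919 with the conditions on each genotype applied to WT and shXBP1 alone, keeping the covariate test over 18 libraries. Held-out shares, 88.4% higher and 88.6% lower in shXBP1, were 96.6% and 93.7% in WT and 72.6% and 65.6% in koCARM1. CARE was in 5.13% of the higher genes' promoters and in 2.56% of the 250 bases before the start alone. Other planned settings left these counts within 1.5 times.

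With each library left out in turn, the covariate test called 4115 to 4267 genes higher and 4313 to 4411 lower, and shared genes numbered 328 to 348 and 182 to 203. Calls within WT were 3250 to 3676 and 3012 to 3249, within koCARM1 3105 to 3279 and 2875 to 3018, and within shXBP1 2883 to 3111 and 2865 to 3042. The interaction passed for 3752 to 4493 genes. Of 96 genes named in the report, the 71 shared ones kept direction and call in the covariate test in all 26 settings. This does not say whether each stayed shared. With a library left out, at least 313 of the 341 higher and 173 of the 197 lower genes stayed shared. ASB1, at 0.35 and not called, was at -0.48 without koCARM1 cells. The causes were not tested.

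Same-numbered libraries did not deviate together (r = -0.048 to 0.0387), so the numbers were not taken as pairs. With the replicate block, 4144 genes were called higher, 4328 lower and 4038 in the interaction, and shared genes were 340 and 192, of which 335 and 188 were in the main set. DESeq2 size factors moved the log2 fold changes of the 96 genes by a median of -0.014. The range of 9367462 to 13917212 counts per library limits what low genes can show, as for GDF15 in koCARM1, and overlapping 3′ ends affect 27 of 140 genes chosen by the rule.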
